A study of Mus musculus with 16 samples.

Results

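The genes described here are 10 transcription factors and subunits that run the cell cycle program, E2f1, E2f2, E2f3, E2f4, E2f7, E2f8, Foxm1, Mybl2, Lin54 and Lin9. They were chosen by symbol, and all 10 were among the 49568 gene symbols of the count table. Their RNA was measured by RNA-seq in 16 libraries of flexor tendon from young adult male mice, which make up 4 groups of 4. C57BL/6J (C57), a common inbred laboratory strain, and MRL/MpJ (MRL), an inbred strain studied for regenerative wound healing, were each profiled in uninjured tendon and at 7 days post injury (dpi). For the injury, the deep digital flexor tendon of a hind paw digit was cut part of the way through. The labels name no transgene, the methods describe anaesthesia and postoperative analgesia of the operated mice, and they give each group as 4 animals. Whole tendon was extracted, so each library holds RNA of tenocytes together with cells of the sheath, blood vessels and infiltrate.

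E2F proteins bind DNA with a DP partner at genes needed for entry into S phase. E2f1, E2f2 and E2f3 are the activating members, which the retinoblastoma protein holds back until it is phosphorylated. E2f4 acts mainly as a repressor in resting cells, together with the pocket proteins p107 (Rbl1) and p130 (Rbl2). E2f7 and E2f8 are atypical members that bind without a DP partner and repress E2F targets later in the cycle. MuvB is a complex that contains Lin9, Lin37, Lin52, Lin54 and Rbbp4. With E2f4 and p130 it forms the DREAM complex of quiescent cells, which keeps cell cycle genes off. In cycling cells it binds B-Myb (Mybl2) and then Foxm1, and these complexes switch on the genes of G2 phase and mitosis. Lin54 is the subunit that touches DNA, at the cell cycle genes homology region (CHR). Adult tendon is a sparsely cellular tissue in which few cells divide.

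RefSeq promoter windows of GRCm38.p6, from 250 bases before to 50 bases after a start site, were on hand for 7 of the 10 genes. None was on hand for E2f4, Foxm1 or Lin9. The first 250 bases of 4 windows are printed because the injured MRL libraries of these genes all lay above the uninjured ones and because the letters of the complexes described above can be looked for in them. Capitals mark the CHR letters TTTGAA or TTCGAA, the E2F words TTTGGCGC, TTTCCCGC, TTTGGCGG and TTTCGCGC, and the E2F core GGCGGGA, each searched on both strands. The core was added after the windows had been read, and it can overlap the word TTTCCCGC read from the other strand.
E2f3, chr13:29986064-29986313, minus strand: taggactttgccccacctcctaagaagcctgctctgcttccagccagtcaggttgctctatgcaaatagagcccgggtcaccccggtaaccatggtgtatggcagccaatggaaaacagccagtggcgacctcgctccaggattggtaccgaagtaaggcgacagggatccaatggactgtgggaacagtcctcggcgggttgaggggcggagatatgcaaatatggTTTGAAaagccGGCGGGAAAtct
E2f7, chr10:110745189-110745438, plus strand: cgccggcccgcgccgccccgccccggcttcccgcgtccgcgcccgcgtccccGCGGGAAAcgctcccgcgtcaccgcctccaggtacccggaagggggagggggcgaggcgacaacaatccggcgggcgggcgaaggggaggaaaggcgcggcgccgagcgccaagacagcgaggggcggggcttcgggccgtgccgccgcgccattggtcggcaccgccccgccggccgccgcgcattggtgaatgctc
E2f8, chr7:48881597-48881846, minus strand: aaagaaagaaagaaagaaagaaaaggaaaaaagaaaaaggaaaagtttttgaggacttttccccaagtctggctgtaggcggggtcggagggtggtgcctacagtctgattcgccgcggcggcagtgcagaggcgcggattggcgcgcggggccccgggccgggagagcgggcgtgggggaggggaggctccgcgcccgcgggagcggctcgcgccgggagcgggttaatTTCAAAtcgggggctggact
Mybl2, chr2:163054385-163054634, plus strand: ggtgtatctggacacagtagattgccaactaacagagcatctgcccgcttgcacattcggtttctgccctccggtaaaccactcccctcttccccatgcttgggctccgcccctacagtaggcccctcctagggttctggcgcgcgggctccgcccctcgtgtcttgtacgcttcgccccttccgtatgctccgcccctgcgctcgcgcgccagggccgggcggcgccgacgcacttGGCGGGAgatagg

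The E2f3 window held TTTGAA from 23 bases before the start, followed by GGCGGGA and the reverse of TTTCCCGC, which share bases. The E2f8 window held TTTGAA on the other strand, from 20 bases before the start. The E2f7 window held an E2F word 198 bases before the start. The Mybl2 window held only the core, from 13 bases before the start. In E2f2, the last 30 bases of a window, shown because a pair of E2F words lies there, were at chr4:136172294-136172323 on the plus strand.
E2f2: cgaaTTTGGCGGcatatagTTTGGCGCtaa
The E2f1 window held neither set of letters and lay inside the gene as GENCODE release M21 annotates it, with its start 466 bases downstream of the GENCODE start, so it is not shown. The 7 genes had 10 windows in all, of which 50% held a CHR, 30% an E2F word and 40% the core, against 19.2%, 2.37% and 11.3% of all 32851 windows. Besides that of E2f1, a window of E2f2, of E2f3 and of Lin54 started 8388, 1672 and 2066 bases inside the gene, and these gave 2 of the 5 windows with a CHR and 2 of the 4 with the core. Among 26 windows of genes known for G2 phase and mitosis (the G2/M list below) 80.8% held a CHR and 3.85% an E2F word, and among 26 windows of genes of DNA replication (the G1/S list) 11.5% and 38.5% did. A match describes letters only, and no binding was measured.

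The libraries held between 12552424 and 23741648 counts. A value of 3 counts, taken as the floor, corresponded to 0.126 to 0.241 CPM (counts scaled to a common library size), and the injured MRL libraries were the deepest, at 18524170 to 23741648 counts. The tenocyte markers Scx, Mkx and Tnmd had counts in all 16 libraries. The library labelled C57 uninjured replicate 4 stood apart. In it 12 epidermal markers took 6.34% of the counts, against at most 0.0765% in any other library, and 30 genes of G2 phase and mitosis summed to 802.5 CPM, against 84.07 to 105.4 CPM in the other uninjured C57 libraries. MRL uninjured replicate 4 correlated better with a C57 uninjured library (Spearman's rho 0.964) than with its own group (0.932 to 0.941), and skeletal muscle markers took 6.45% of the counts of the injured C57 library BI-181. The C57 injury results of the regulators are therefore given with and without C57 uninjured replicate 4. Its G2/M sum was part of the reason. Larger changes without it, for genes high in that library, thus follow in part from that choice. Macrophage markers summed to 3627 to 8472 CPM in the injured libraries of both strains and to 774.7 to 1736 CPM in the uninjured ones. Lymphocyte markers summed to 4.19 to 12.8 CPM in the injured and at most 1.91 CPM in the uninjured libraries. Endothelial markers summed to 81.95 to 127 CPM in injured and 15.45 to 71.38 CPM in uninjured C57 tendon, and to 0.0840 to 24.2 CPM in injured and 0 to 54.3 CPM in uninjured MRL tendon. The part of these cell types in the results was not tested. In whole tissue, more dividing cells and more RNA per dividing cell cannot be told apart.

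**Figure D1:**
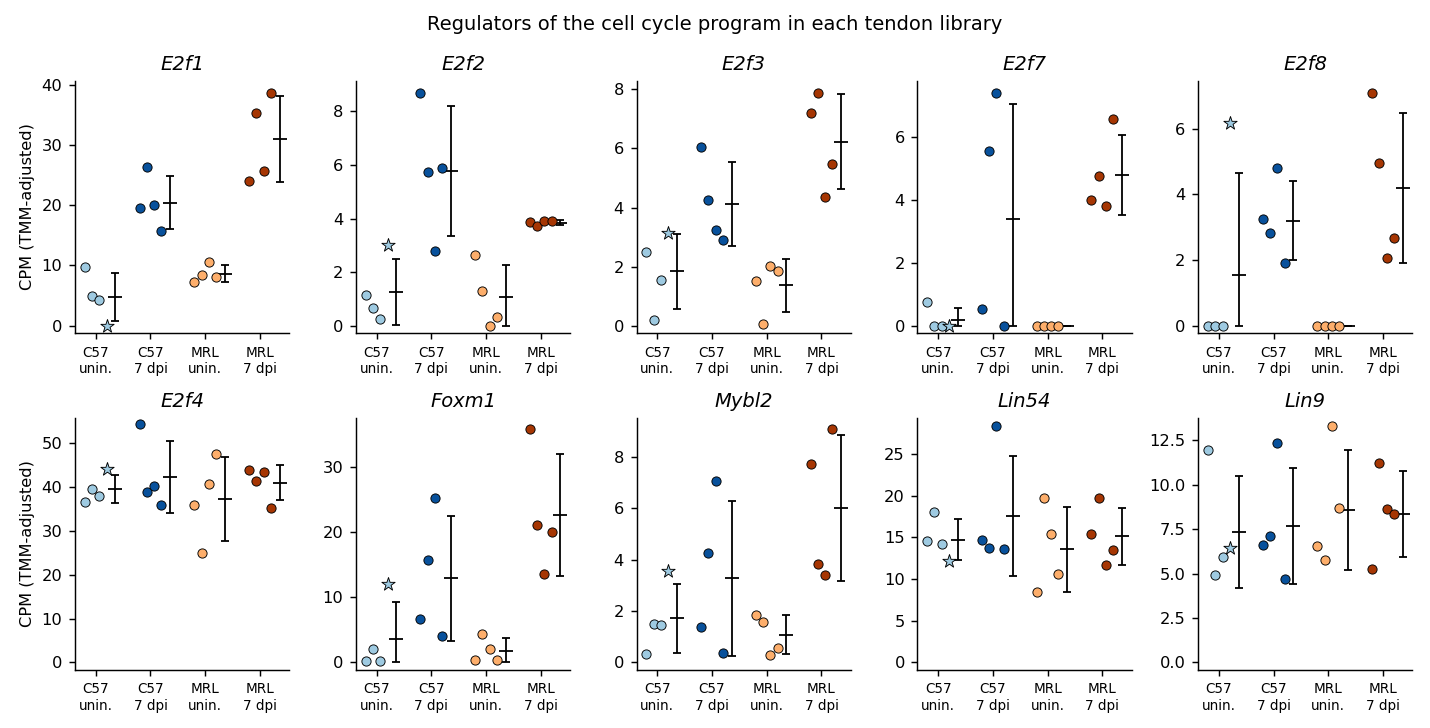
CPM of each regulator in each of the 16 libraries (points, 1 panel a gene, linear axes from 0), with mean and SD of each group (bars, cut at 0, n = 4) beside them. The star is C57 uninjured replicate 4. E2f4, Lin54 and Lin9 overlap between injured and uninjured tendon in both strains, whereas the 4 injured MRL libraries lie above the 4 uninjured ones for the other 7 genes.

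In MRL tendon, 5 of the 10 regulators passed the test of injured against uninjured tendon (adjusted p under 0.05 and a log2 fold change beyond 1 in either direction), and all 5 were higher: E2f1, E2f7, E2f8, Foxm1 and Mybl2. Of all 14274 genes tested in the same 8 libraries, 7.41% were called and 5.25% were called higher. With all 16 libraries in 1 fit 2 regulators were called, E2f7 and E2f8, and the share over all genes in that fit is not given here. The injured libraries all lay above the uninjured ones for 7 of the 10, with E2f2 and E2f3 added to the 5, against 13.5% of the genes tested. E2f4, Lin54 and Lin9 differed little between injured and uninjured MRL tendon. In C57 tendon none of the 9 regulators tested was called, where 1.07% of 14424 genes were called and 0.908% were called higher. Without C57 uninjured replicate 4, 3 of 10 were called, all higher, E2f1, E2f2 and E2f8, where 5.01% of 14983 genes were called and 3.5% were called higher. With BI-181 alone left out, and replicate 4 kept, none was called. In edgeR's test of the difference between the strains' injury responses no regulator was called, and DESeq2 called E2f8 (below).

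E2f1, the activating E2F that was most abundant here, was counted 573, 780, 583 and 695 times in injured MRL tendon (the libraries BI-270, BI-272, BI-274, BI-275, in this order throughout), and 110, 117, 178 and 101 times in the uninjured MRL replicates 1 to 4. The groups were far apart, at 31.0 ± 7.17 and 8.62 ± 1.42 CPM (SD, n = 4 each). The rise of 3.61-fold, or 1.85 ± 0.25 (standard error, SE) on the log2 scale, passed edgeR's quasi-likelihood test (Benjamini-Hochberg adjusted p = 0.00231). With all 16 libraries in 1 fit the change was 1.84 with an SE of 0.72 and was not called (adjusted p = 0.136, edgeR). In C57 tendon, E2f1 was counted 326, 427, 309 and 221 times after injury (BI-181, BI-183, BI-184, BI-185, also in this order throughout), and 144, 76, 56 and 0 times in the uninjured replicates 1 to 4. Every injured C57 library again lay above every uninjured one, which held for E2f1 alone of the 10 genes and for 7.42% of all genes tested. The 0 was in replicate 4, the library with the most counts on G2/M genes among the uninjured ones. With that library the log2 fold change was 2.08 (SE 0.99, adjusted p = 0.361, edgeR). Without uninjured replicate 1 it was 2.69 and was not called (adjusted p = 0.333, edgeR). Without uninjured replicate 4 the change was 1.66 (SE 0.36), or 3.16-fold, and was called (adjusted p = 0.0292, edgeR).

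E2f2, a second activating member that acts beside E2f1, stood at 3.72 to 3.92 CPM in the 4 injured MRL libraries and at 2.65, 1.30, 0 and 0.321 CPM in the uninjured ones. The groups did not overlap, but the uninjured values spread widely and the log2 fold change of 1.85 (SE 1.02) was not called (adjusted p = 0.267, edgeR). It was 2.83 without MRL uninjured replicate 1, the highest uninjured library (adjusted p = 0.172, edgeR). Without MRL uninjured replicate 3, the library at 0, it was 1.41 (adjusted p = 0.291, edgeR). In injured C57 tendon E2f2 stood at 8.70, 5.73, 2.79 and 5.89 CPM, and in the uninjured replicates at 1.1, 0.648, 0.231 and 3.00 CPM. Replicate 4, the highest of these, lay above the lowest injured library. The log2 fold change was 2.14 (SE 0.81, adjusted p = 0.259, edgeR) with it and 3.06 (SE 0.70, adjusted p = 0.0363, edgeR) without it, a rise of 8.35-fold.

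E2f3, the other activating member, was counted 171, 174, 99 and 98 times in injured MRL tendon and 23, 1, 34 and 23 times in uninjured MRL tendon. No injured library came near an uninjured one, and the log2 fold change was 2.18 (SE 0.75), yet it was not called by edgeR (adjusted p = 0.0891). DESeq2 called it (adjusted p = 0.0108). In C57 tendon it was counted 101, 69, 50 and 41 times after injury and 37, 3, 20 and 49 times before, so the groups overlapped. Its log2 fold change there was 1.12 (SE 0.77, adjusted p = 0.535, edgeR). Without replicate 4, the highest uninjured library, the groups did not overlap, and the change was 1.53 (SE 0.78, adjusted p = 0.305, edgeR).

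The atypical repressors E2f7 and E2f8 were not counted at all in any of the 4 uninjured MRL libraries. E2f7 was counted 95, 105, 86 and 118 times in the injured ones (4.78 ± 1.27 CPM, SD, n = 4). This mean was at least 22.9-fold above the mean floor of the uninjured libraries (adjusted p = 0.00337, edgeR). E2f8 was counted 169, 109, 47 and 48 times (4.20 ± 2.30 CPM), with a mean at least 20.1-fold above the floor (adjusted p = 0.00541, edgeR). Both genes thus went from no count to at least 2.07 CPM in every injured MRL library, with BI-270 highest for E2f8 and BI-275 highest for E2f7.

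In C57 tendon this pair behaved less evenly. E2f7 was counted 9, 90, 114 and 0 times after injury, and 11, 0, 0 and 0 times in the uninjured replicates. Only BI-183 and BI-184 carried it above 1 CPM, and the gene failed the expression filter of the C57 comparison. It was tested without replicate 4 and was not called (adjusted p = 0.305, edgeR). E2f8 was counted 54, 46, 74 and 27 times after injury and 0, 0, 0 and 97 times in uninjured tendon, so that the single uninjured library with counts, replicate 4, was above all injured ones. With it, E2f8 was not called (adjusted p = 0.839, edgeR). Without it, the mean of injured tendon stood at least 15.3-fold above the floor (adjusted p = 0.0109, edgeR). Of the exonic bases of E2f8, 11.2% lie on the opposite strand of Gm2788, a transcript with at most 36 counts in any library. The strand setting of the counting is not given in the sources used here, so reads of that stretch could belong to either gene.

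E2f4, the E2F of resting cells, varied little between the groups. Its levels were 43.9, 41.4, 43.4 and 35.2 CPM in injured MRL tendon and 35.9, 24.9, 40.7 and 47.6 CPM in uninjured MRL tendon. In C57 tendon they were 54.4, 38.9, 40.2 and 36 CPM after injury and 36.5, 39.6, 38.0 and 44.0 CPM before. Injured and uninjured libraries overlapped in both strains. The log2 fold change was 0.14 in MRL (95% confidence interval -0.32 to 0.61, adjusted p = 0.697, edgeR) and 0.06 in C57 (-0.40 to 0.52, adjusted p = 0.925, edgeR), or 0.13 (-0.32 to 0.58, adjusted p = 0.758, edgeR) without replicate 4. A doubling in either direction lies outside all 3 intervals.

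Foxm1, the activator of mitotic genes, was counted 852, 465, 307 and 359 times in injured MRL tendon and 6, 61, 35 and 5 times in uninjured MRL tendon. Its level was 22.6 ± 9.41 against 1.82 ± 1.89 CPM (SD, n = 4 each), a rise of 12.4-fold (log2 fold change 3.63 with an SE of 0.72, adjusted p = 0.0121, edgeR). Without MRL uninjured replicate 2, the highest uninjured library, the log2 fold change was 4.52 (adjusted p = 0.0102, edgeR), and with all 16 libraries in 1 fit Foxm1 was not called (adjusted p = 0.0713, edgeR). In injured C57 tendon Foxm1 ranged from 57 counts in BI-185 to 390 in BI-184, with 111 in BI-181 and 255 in BI-183. The uninjured C57 replicates held 3, 31, 2 and 189 counts. Replicate 4 lay between the injured libraries, and the other 3 lay below all of them. The log2 fold change was 1.75 (SE 1.23, adjusted p = 0.542, edgeR) with replicate 4. Without it the change was 3.96 (SE 1.03), close to the MRL value in size, and just missed the threshold (adjusted p = 0.0573, edgeR).

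Mybl2, which binds MuvB before Foxm1 does, stood at 7.73, 3.81, 3.39 and 9.07 CPM in injured MRL tendon and at 1.86, 1.59, 0.298 and 0.562 CPM in uninjured MRL tendon. The groups did not overlap, and the rise was 5.59-fold (log2 fold change 2.48, SE 0.70). Its adjusted p of 0.0465 (edgeR) was close to the threshold, and with any 1 of the 8 libraries left out except BI-274, in 7 of 8 fits, Mybl2 was no longer called, with adjusted p from 0.0661 to 0.102 (edgeR). One of these was the fit without MRL uninjured replicate 4 (adjusted p = 0.0977, edgeR), in which the other 4 calls were kept. In C57 tendon Mybl2 ran from 0.355 CPM in BI-185 to 7.07 CPM in BI-184, and from 0.336 to 3.57 CPM in uninjured tendon. It was called neither with replicate 4 (log2 fold change 0.85, SE 0.98, adjusted p = 0.733, edgeR) nor without it (1.52, SE 1.00, adjusted p = 0.427, edgeR). Without BI-184 the change was 0.19.

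Of the MuvB subunits, Lin54 stood at 15.1 ± 3.43 CPM in injured and 13.5 ± 5.06 CPM in uninjured MRL tendon, and at 17.6 ± 7.19 and 14.7 ± 2.44 CPM in C57 tendon (SD, n = 4 each). The high C57 mean after injury came from BI-184, at 28.3 CPM against 13.6 to 14.6 CPM in the other 3. Lin9 stood at 8.36 ± 2.44 and 8.58 ± 3.38 CPM in injured and uninjured MRL tendon, and at 7.67 ± 3.27 and 7.32 ± 3.16 CPM in C57 tendon. Neither gene was called in either strain. The intervals of the log2 fold change ran from -0.54 to 0.87 for Lin54 and from -0.88 to 0.81 for Lin9 in MRL. They ran from -0.49 to 0.91 and from -0.99 to 1.03 in C57, and without replicate 4 from -0.57 to 0.85 and from -1.05 to 1.01, so for Lin9 in C57 a doubling was not outside the interval.

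**Figure D2:**
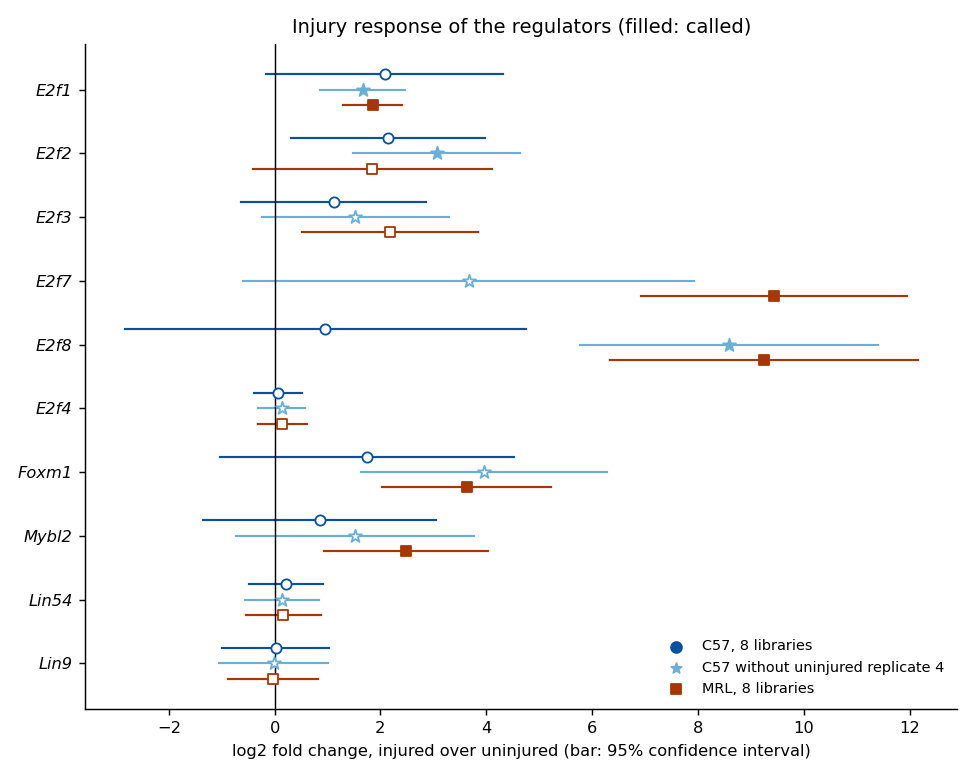
log2 fold change of each regulator, injured over uninjured, with its 95% confidence interval, for C57 with all 8 libraries (circles), C57 without uninjured replicate 4 (stars) and MRL (squares), filled where called. E2f7 has no C57 circle because it failed the filter, the fitted values of E2f7 and of E2f8 in MRL and without replicate 4 rest on uninjured groups at or near 0 and are no measure of size, and E2f4, Lin54 and Lin9 lie near 0 with intervals that include it.

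Of 12 genes listed as E2F, DP, pocket protein, MuvB and Myb partners, 11 were tested in MRL tendon (Myb, with at most 29 counts in a library, failed the filter), 2 were called higher and 1 lower, and their median log2 fold change was 0.18, against 7.41% called (5.25% higher) and a median of -0.034 over all genes tested. Tfdp1, the main DP partner of the activating E2Fs, stood at 86.4 to 116 CPM after injury and 40.2 to 58.0 CPM before (log2 fold change 1.02, adjusted p = 0.00531, edgeR). Mybl1, the A-Myb relative of Mybl2, stood at 6.17 to 16.8 CPM against 2.01 to 2.65 CPM (log2 fold change 2.38, adjusted p = 0.00596, edgeR). Rbl2, the p130 pocket protein of DREAM, was lower, at 28.1, 32, 37.9 and 11 CPM after injury and 49.1, 59.3, 53.0 and 82.2 CPM before (log2 fold change -1.16, adjusted p = 0.0498, edgeR). Tfdp1 sat at the fold threshold and Rbl2 at the p threshold, and leaving out 1 library gave between 1 and 4 partners called. With upper-quartile factors in place of TMM 1 partner was called. Of the exonic bases of Rbl2, 9.17% lie opposite Aktip, a gene with up to 2945 counts in a library.

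The other partners were not called in MRL. Rbl1, the p107 pocket protein, stood at 8.29 to 26.5 CPM after injury and 4.47 to 13.4 CPM before (log2 fold change 1.2, adjusted p = 0.0957, edgeR). The MuvB subunits Lin37, Lin52 and Rbbp4 had log2 fold changes of -0.27, -0.42 and 0.18. The retinoblastoma gene Rb1 had -0.01, and E2f5, E2f6 and Tfdp2 had 0.46, 0.29 and -0.55. In C57 tendon no partner was called, with or without replicate 4. The lowest log2 fold change there was that of Lin37, -0.85 (adjusted p = 0.167, edgeR), which was -0.73 without replicate 4 (adjusted p = 0.119, edgeR).

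Genes that these regulators are known to drive were followed in 2 lists of 30. The G1/S list holds genes of DNA replication and nucleotide supply, which E2Fs control, and the G2/M list holds genes of mitosis, which Mybl2, Foxm1 and MuvB control. In MRL tendon 18 of 30 G1/S genes were called, all higher, with a median log2 fold change of 1.93, and 28 of 30 G2/M genes were called, all higher, with a median of 5.28. Over all genes tested, 5.25% were called higher. Rrm2, a subunit of ribonucleotide reductase, rose 20.7-fold (adjusted p = 0.00119, edgeR), and Mcm5, a subunit of the replicative helicase, rose 6.69-fold (adjusted p = 0.00184, edgeR). Mcm4 and Pola1 of the same list had log2 fold changes of 0.65 and 0.45 and were not called. Cdk1, the mitotic kinase, rose 157-fold (adjusted p = 0.000785, edgeR), and the spindle factor Tpx2 rose 38.0-fold (adjusted p = 0.000824, edgeR). The 2 G2/M genes not called were Kif14, with a log2 fold change of 4.16 (adjusted p = 0.0891, edgeR), and Cdc25b, with -0.58 (adjusted p = 0.177, edgeR).

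In C57 tendon the same lists depended on 1 library. With all 8 libraries no G1/S or G2/M gene was called, and the medians were 0.37 and 1.33, against -0.048 over all genes. Without uninjured replicate 4, 2 G1/S genes and 18 G2/M genes were called, all higher, where 3.5% of all genes were called higher. The medians were 0.51 and 4.09, against -0.006 over all genes. Replicate 4 was set apart in part by its high G2/M sum, so larger G2/M changes without it follow in part from that choice. The count of regulators whose injured libraries all lay above the uninjured ones rose from 1 to 5 (E2f1, E2f2, E2f3, E2f8 and Foxm1), against 11.6% of genes without that library.

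**Figure D3:**
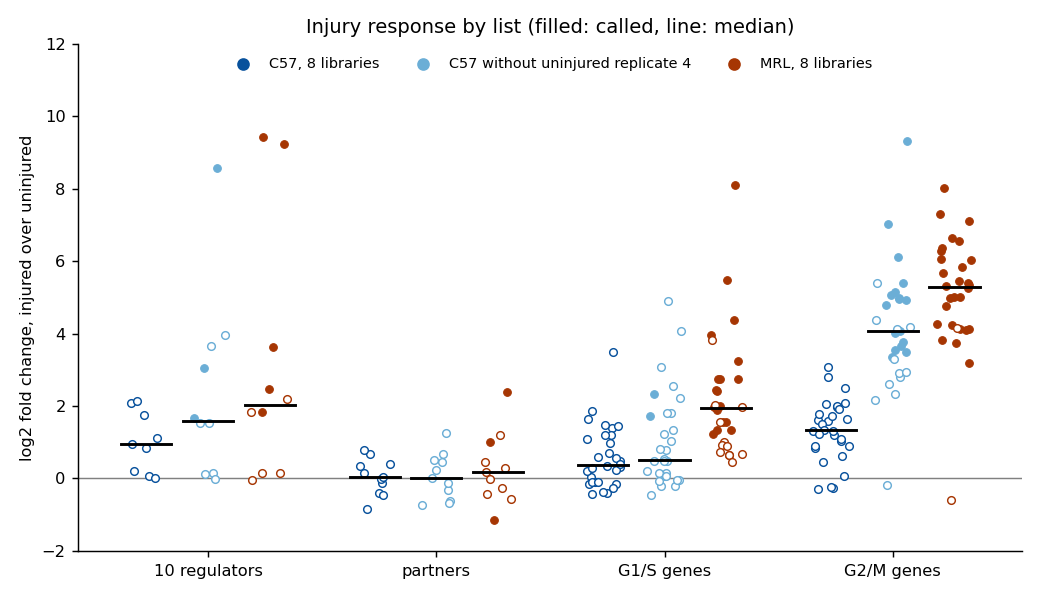
log2 fold change, injured over uninjured, of each tested gene of 4 lists, in C57 with all 8 libraries, C57 without uninjured replicate 4 and MRL (points, filled where called, with the median as a black line). In MRL the G2/M genes have a median of 5.28, above that of the G1/S genes at 1.93, and in C57 the G2/M median moves from 1.33 to 4.09 when replicate 4 is left out.

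The strains were compared directly in 3 ways. The first was a test of strain by injury fitted to all 16 libraries, which asks whether the injury response differed. None of the 10 regulators was called, and none of 15947 genes was (0%), with 1939 genes at an unadjusted p under 0.05 and 221 called by DESeq2. The lowest adjusted p among the regulators was that of E2f8 (0.344, edgeR), followed by E2f7 (0.449, edgeR). DESeq2 called E2f8 alone of the 10. That difference rests on the 97 counts in C57 uninjured replicate 4. Without that library E2f8 was at 0 in every uninjured library of both strains. Its mean after injury was then at least 15.3-fold above the floor in C57 and at least 20.1-fold in MRL. The difference in the Foxm1 response (MRL minus C57) was 1.82 on the log2 scale (95% confidence interval -1.36 to 4.99) and became -0.38 without that library, and that of E2f1 moved from -0.28 (-2.38 to 1.83) to 0.14. The intervals are wide, and hold differences of several fold for either gene.

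The second way compared injured MRL with injured C57 tendon. None of the 10 regulators was called there, where 3.43% of 14626 genes were. E2f1 was the nearest, at 24.1, 35.4, 25.7 and 38.7 CPM in MRL and 19.6, 26.3, 20.03 and 15.7 CPM in C57 (log2 difference 0.56, 95% confidence interval 0.03 to 1.10, adjusted p = 0.212, edgeR). Foxm1 differed by 0.78 (-0.39 to 1.95), Mybl2 by 0.85 (-0.86 to 2.57, or 1.54 without BI-184) and E2f3 by 0.55 (-0.38 to 1.48), each with a higher MRL mean. E2f2 had the higher mean in C57, with a difference of -0.63 (-1.61 to 0.34). All 30 G1/S and all 30 G2/M genes had a log2 difference above 0 (medians 0.98 and 1.09, against -0.064 over all genes). In the test of strain by injury 30 and 29 of them did (medians 1.31 and 4.04, or 1.07 and 0.94 without C57 uninjured replicate 4), and edgeR called none, while DESeq2 called 1 G1/S and 3 G2/M genes. Of the target lists, Mcm5 alone was called between the injured strains, as higher in MRL (log2 difference 1.32, adjusted p = 0.0201, edgeR). No G1/S gene was called without BI-183, BI-185 or BI-272, 2 were without BI-270 or BI-274 and 3 with no expression filter. For the G2/M list 1 gene was called without BI-274, and DESeq2 called 7 G1/S and 2 G2/M genes. Over all genes DESeq2 called 1477, and edgeR called 502 with the 8 injured libraries. Without BI-274 edgeR called 481, and without BI-183, BI-185 or BI-272 it called 231 to 286. Tenocyte marker sums did not overlap between the injured strains, at 71538 to 115901 CPM in MRL and 33651 to 62363 CPM in C57. They did not overlap in uninjured tendon either, at 66700 to 97199 CPM in MRL and 38017 to 65664 CPM in C57. Endothelial sums did not overlap after injury, at 0.0840 to 24.2 CPM in MRL and 81.95 to 127 CPM in C57, but overlapped in uninjured tendon. The part of these cell types was not tested. Within the injured C57 group, BI-185 was the lowest of the injured C57 libraries for 9 of the 10 regulators and had the lowest G2/M sum (213.9 CPM), and BI-184 was the highest for 6, the lowest for E2f2, and had the highest sum (1053 CPM). In MRL, BI-274 was the lowest for 6, the highest for E2f2, and had the lowest sum (640.6 CPM). BI-275, with the highest MRL sum (1982 CPM), was the highest for E2f1, E2f7 and Mybl2 and the lowest for E2f4.

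The third way compared the uninjured tendons. E2f7 and E2f8 failed the filter, and none of the other 8 regulators was called, nor was any of 14055 genes (0%, with 1106 at an unadjusted p under 0.05 and 102 called by DESeq2). With both libraries labelled uninjured replicate 4 left out 497 genes were called, none of them a regulator. E2f1 was at 7.29 to 10.6 CPM in MRL and 0 to 9.67 CPM in C57. The log2 difference of Foxm1 was -1.06 (-4.14 to 2.02), and it became 1.19 without C57 uninjured replicate 4.

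Divided by exon length, so that genes can be set beside each other, E2f4 was the most abundant regulator in every group. Its mean was 16.1 CPM per kilobase in uninjured and 17.3 in injured C57 tendon, and 15.2 and 16.7 in MRL tendon, and its lowest library lay above the highest library of the next gene in each group. After injury E2f1 came next, at 9.82 CPM per kilobase in MRL and 6.47 in C57, again clear of the gene below it. In uninjured tendon E2f1 was at 2.73 in MRL and 1.5 in C57 (2.00 without replicate 4) and overlapped Lin54, at 2.33 and 2.53 (2.67 without that library). In MRL, Foxm1 had rank 5 before injury (0.317) and rank 3 after it (3.93). In C57 it had rank 5 before injury (0.627) and rank 4 after it (2.25). Without replicate 4 its mean before injury was 0.137, below the means of E2f3, Mybl2 and E2f2 (0.138), with values that overlapped those of each. In both injured groups Foxm1 overlapped Lin54. E2f7 had the lowest mean of both injured groups, at 0.530 CPM per kilobase in MRL and 0.374 in C57. In uninjured tendon it was at 0 with E2f8 in MRL and at 0.0205 in C57, where E2f8, at 0.284 with replicate 4, was at 0 and below it without that library. Most other neighbours overlapped. The lengths are those of all annotated exons merged, which understates genes whose tendon transcripts are shorter.

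Over the 16 libraries, the genes whose log2 CPM was most like that of Foxm1 among 15937 genes were Shcbp1, Ccnb1 and Nusap1 (Pearson's r 0.954, 0.948 and 0.940). Those most like Mybl2 were Mcm2, Spc24 and Cdc20 (0.919, 0.878 and 0.872). These correlations describe libraries that share groups and depth, and no test is attached. Without C57 uninjured replicate 4 the same 3 genes were nearest to Foxm1, and Mcm2, Cd44 and Spc24 were nearest to Mybl2 (0.919, 0.876 and 0.875). The genes most like E2f1 were Tgm2, Casp4 and Vegfd (0.976, 0.968 and 0.962), and without C57 uninjured replicate 4, where E2f1 was at 0, they were Mettl21b, Birc5 and Fscn1 (0.965, 0.953 and 0.953). For E2f4 the closest were Slc26a6, Pgs1 and Lnpk1 (0.798, 0.784 and 0.777), and without that library Mipol1, Lnpk1 and Ssx2ip (r 0.81 to 0.83).

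Set against the 30 G2/M genes, the median r was 0.864 for Foxm1, 0.908 for E2f8, 0.769 for E2f7 and 0.761 for Mybl2, while over all genes these medians lay between -0.046 and 0.003. For E2f4, Lin54 and Lin9 it was 0.240, 0.272 and 0.053. E2f1 was at 0.239 with all 16 libraries and at 0.861 over the 15 without C57 uninjured replicate 4. Its r with Foxm1 moved likewise from 0.267 to 0.853. In that library Foxm1 was at 12.1 CPM, within the range of injured C57 tendon (4.04 to 25.3 CPM), and E2f8 at 6.19 CPM, above it (1.92 to 4.80 CPM), while E2f1 and E2f7 had no count.

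**Figure D4:**
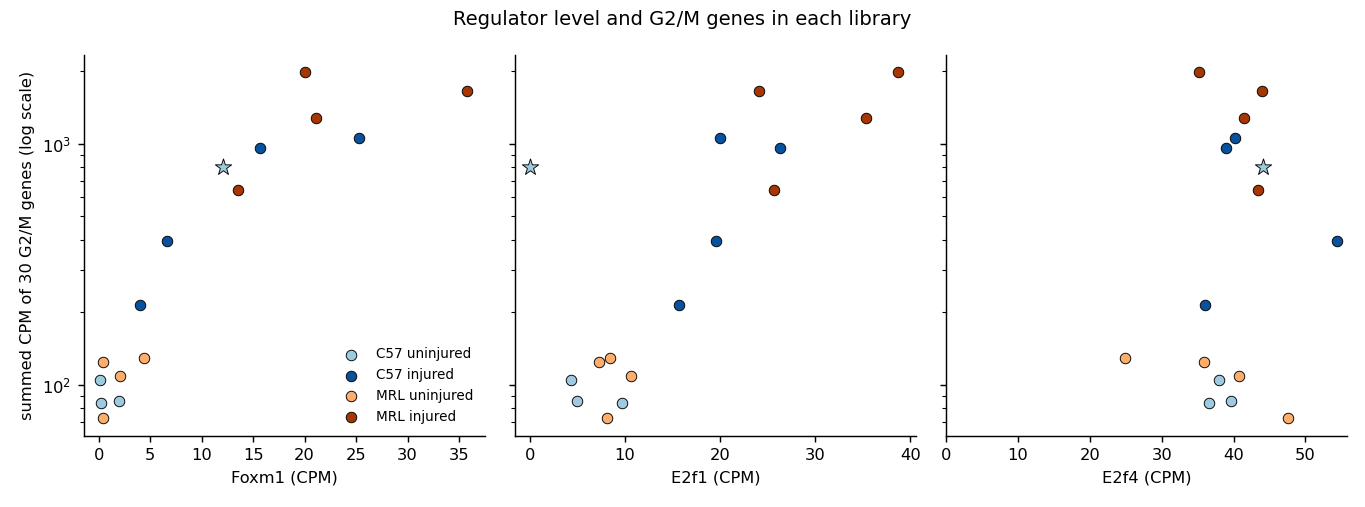
Summed CPM of the 30 G2/M genes (log axis) against the CPM of Foxm1, E2f1 and E2f4 (linear axes) in each of the 16 libraries, colored by group, with C57 uninjured replicate 4 as a star. The sum tends to be higher where Foxm1 is higher, the star at 802.5 CPM falls among the injured C57 libraries for Foxm1 but at 0 for E2f1, and E2f4 shows no such order.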

How the data were processed

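RNA-seq of flexor tendon was analysed in 16 libraries, 4 per group, grouped by the strain and time point in their labels. Per the labels and the submitters' processing notes, single-end reads were trimmed (Trimmomatic 0.36), mapped (STAR 2.5.2b) to GRCm38.p5 and counted (Subread 1.5.0p3, featureCounts), and DESeq2 1.14.1 is named. The authors deposited whole-number counts per gene symbol, not normalized. The labels describe TruSeq V2 libraries and the methods SMARTer pre-amplification with NexteraXT. Neither kit marks strand, and no molecular identifiers are named, so counting error understates technical error. The sources used here do not give the annotation or strand setting of the counts.

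CPM used TMM-adjusted library sizes. Each comparison of 2 groups was fitted on its 8 libraries with edgeR 4.0.16 in R 4.3.3 (expression filter, TMM, robust quasi-likelihood test), and the interaction on all 16. Calls needed a Benjamini-Hochberg adjusted p under 0.05 over all genes tested and, except for the interaction, an absolute log2 fold change over 1. Log2 CPM used a prior count of 2. A fold against a group at 0 was the mean of the injured group over the mean floor of 3 counts per library. Exon lengths were the merged exons of GENCODE release M21 (GRCm38), and promoter windows came from RefSeq (GRCm38.p6). The tests were first checked on simulated counts. DESeq2 1.42.0, RLE and upper-quartile factors, no filter, 1 fit of all libraries, libraries left out and a replicate block were the alternatives.

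The members and lists were chosen with earlier results of these data known. All 10 members are named, as are the partners, the 2 genes with the smallest and the 2 with the largest p in MRL of each target list, and the 3 genes most like Foxm1, Mybl2, E2f1 and E2f4. Replicate numbers of the uninjured libraries mark different animals and did not pair the samples. No cell type of the tissue was separated, and libraries were taken as separate animals on the word of the methods.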

Additional observations from a re-analysis of the deposited data

Results flagged for a closer look

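In 4 of the 38 group-by-gene sets of 4 libraries that could be examined, 1 library lay far from the other 3, with a gap, as a share of the whole range, above Dixon's critical value for 4 samples. Chance gives about 1 in 20 for values that are not tied. E2f3 in MRL uninjured replicate 2 was at 0.0721 CPM, against 1.52 to 2.03 CPM in the other 3 (gap 0.889 of the range). E2f7 in C57 uninjured replicate 1 was at 0.739 CPM, against 0 in the other 3 (1.000). E2f8 in C57 uninjured replicate 4, the library with epidermal markers, was at 6.19 CPM, against 0 in the other 3 (1.000). For E2f7 and E2f8 the 3 libraries at 0 fix the gap at 1.000 whatever the count in the other one, so that rate does not apply to them. Lin54 in the injured C57 library BI-184, which was also the highest of its group for 5 other regulators, was at 28.3 CPM against 13.6 to 14.6 CPM (0.895). The causes were not tested.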

How the results depend on the processing

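RLE and upper-quartile factors changed no call of a regulator. With DESeq2 the genes called were 910 in C57 injury, 1807 in MRL injury, 221 in the interaction (1 of them a regulator, E2f8), 1477 between injured strains and 102 between uninjured strains. With all 16 libraries in 1 fit they were 367 in C57 injury and 227 between injured strains, and 2 regulators were called in MRL injury, E2f7 and E2f8, with E2f1, Foxm1 and Mybl2 at adjusted p of 0.136, 0.0713 and 0.114 (edgeR). Without the expression filter Mybl2 missed the threshold in MRL (adjusted p = 0.0614, edgeR), and 1 gene was called between uninjured strains.

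Leaving out 1 library gave 10 (without C57 uninjured replicate 3) to 750 genes (without replicate 4) in C57 injury, with 0 to 3 regulators called. It gave 689 to 1260 genes in MRL injury, with 4 or 5 regulators, 231 to 481 between injured strains and 0 to 3 between uninjured strains. Log2 fold changes that turned sign then ranged in C57 injury from -0.074 to 0.16 for E2f4, -0.075 to 0.35 for Lin54 and -0.26 to 0.36 for Lin9, and in MRL injury from -0.0073 to 0.30, -0.0078 to 0.40 and -0.20 to 0.24. In the interaction they ranged from -0.89 to 0.14 for E2f1, -1.25 to 0.64 for E2f2, -0.12 to 0.19 for E2f4, -0.38 to 2.71 for Foxm1, -0.27 to 0.22 for Lin54 and -0.43 to 0.21 for Lin9. Between injured strains E2f4, Lin54 and Lin9 ranged from -0.16 to 0.080, -0.36 to 0.061 and -0.085 to 0.40. Between uninjured strains E2f2, E2f4, Foxm1, Lin54 and Lin9 ranged from -1.25 to 0.65, -0.24 to 0.056, -1.92 to 1.19, -0.37 to 0.038 and -0.072 to 0.54. None of these values was called.

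With both libraries labelled uninjured replicate 4 left out, 497 genes differed between uninjured strains, none a regulator. E2f2, Foxm1 and Mybl2 then had log2 differences of 0.94, 1.51 and 0.17, and the interaction values of E2f1 and Foxm1 were 0.11 and -0.71. Same-numbered uninjured libraries did not deviate together (correlations -0.262 to 0.0157), and with the replicate block Foxm1 had a difference of 0.64, not called. In MRL injury the standard errors were widest for E2f8 and E2f7 (1.25 and 1.08), which had no count in uninjured tendon. The cause of these changes was not tested.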
